A study of Oryctolagus cuniculus with 10 samples.

Results

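Complement and coagulation proteins are plasma proteins that are made largely by the liver, and their transcripts were examined here in livers of rabbits fed with or without squalene. Members were the rows of the authors' deposited comparison table whose symbol was one of 50 listed genes. Of these, 41 were found among the 19123 rows of the table, and 9 were absent under their symbol, namely C1QA, C1QB, C8G, CFD, MASP2, C4BPA, F13A1, F13B and PROZ. The 41 genes comprised 16 of 22 complement genes, 15 of 17 clotting genes, 5 of 6 inhibitors of clotting and all 5 genes of fibrinolysis. Both groups consisted of male wild-type New Zealand white rabbits, whose age is not given in the sources used here. Control animals (n = 5) ate for 4 weeks a diet to which 1% sunflower oil had been added, and squalene animals (n = 5) ate that same diet containing in addition 0.5% squalene, a triterpene from which sterols are built. All were starved before the liver was taken, so both groups share the fasted state. Libraries were made from poly-A RNA of the liver.

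For each gene the table gives 1 expression level per diet, and no value per rabbit. The results below are therefore ratios of these pooled levels, squalene over control, mostly on the log2 scale, and they carry no replicate error and no test. Levels of 1 or more had lost their decimal mark, so that a level cannot be printed and levels of different genes cannot be compared. In all 41 members both levels were at 1 or more. Each ratio was taken as the one nearest to 1, which is right for any gene that differed by less than 3.16-fold. A gene with a larger difference would be given too small a ratio or the wrong direction, and the levels alone cannot show whether a member is such a gene. The authors' own fold changes were not used to settle this. In the 2953 rows that kept both marks no such choice was needed, and there the largest difference was 1.82-fold, but these are rows with levels under 1. Among the 242 rows that kept 1 mark, 1 differed by more than 3.16-fold, by at least 3.92-fold, so larger differences do occur in the table. The paper also reports several genes past that fold. Counts and shares past a threshold, for members and for all rows, therefore rest on this choice. A difference of 1.5-fold or more (0.58 on the log2 scale) is called past the threshold, as a description only. The number of reads behind each level is not known from the table.

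Complement is a cascade in which proteases activate each other on a target surface. C1 starts the classical pathway on antibodies and the MASP proteases start the lectin pathway on sugars, both lead to cleavage of C3 and C5, and C5 to C9 then assemble a pore in the target membrane. Clotting is a similar cascade that ends in thrombin, which turns soluble fibrinogen into fibrin, and plasmin dissolves the fibrin again. Most of these proteins are secreted by hepatocytes, but C1q and properdin come largely from macrophages and other leukocytes, and factor VIII, von Willebrand factor, tissue-type plasminogen activator and tissue factor pathway inhibitor come largely from endothelium.

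Most members differed little between the diets. On squalene, 23 of the 41 genes were higher and 18 were lower. Their median log2 ratio was 0.05, and that of all rows was 0.02. The median size of the difference, regardless of its direction, was 1.16-fold in the members and 1.15-fold in all rows. Only CFI and F11 lay past 1.5-fold, both higher on squalene, which is 4.88% of the members, and 7.69% of all rows lay past this threshold in either direction, 4.70% on the higher and 2.99% on the lower side. Among the 15928 rows with both levels at 1 or more, the share was 8.58%. The share of members was thus near or below that of the table as a whole, and no member reached 2-fold, as 0.999% of all rows did. At a lower threshold of 0.32 on the log2 scale, 11 members (26.8%) were past it, as were 29.2% of all rows, 16.4% higher and 12.8% lower. The 11 were C1QC, C2, CFI, CFP, F3, FGG and F11, all higher on squalene, and F8, FGA, TFPI and PLAT, all lower.

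**Figure D1:**
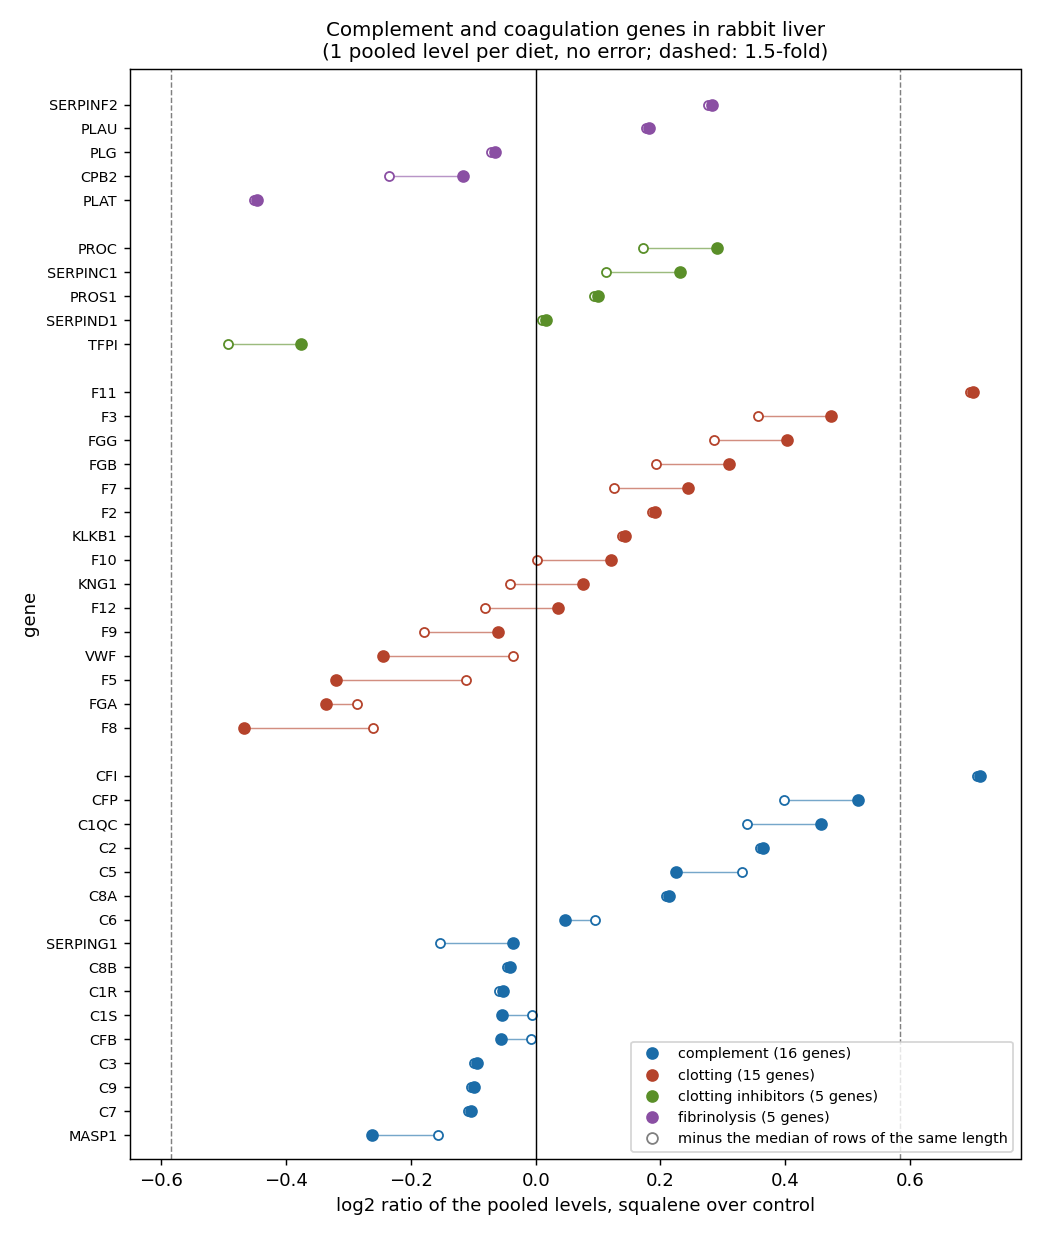
Each row is a gene, and the filled point is the log2 ratio of its pooled levels, squalene over control, coloured by group; the open point is that ratio minus the median of all rows of the same length class, and dashed lines mark 1.5-fold. CFI at 0.71 and F11 at 0.70 are the points beyond a dashed line, the lowest filled point is F8 at -0.47, and the lowest open point is TFPI at -0.49.

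The ratio of the levels depended on the length of the transcript across the whole table, and this touches every value that follows. Among rows with both levels at 1 or more, the median log2 ratio was 0.22 for transcripts under 1000 bases, 0.12 from 1000 to 2000 bases, 0.01 from 2000 to 3000 bases and -0.05 from 3000 to 4000 bases. It was -0.11 from 4000 to 6000 bases and -0.21 for transcripts of 6000 bases or more. Of the shortest transcripts 70.3% were higher on squalene, and of the longest 25.3%. Across these 15928 rows, Spearman's rho of length and log2 ratio was -0.34, and across the 41 members it was -0.40. Both are descriptions across genes of the same pooled libraries, and genes are not independent replicates. Beside the ratio of a member, its distance from the median of its length class is therefore given where it matters. The part of transcript length in the results was not tested further.

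**Figure D2:**
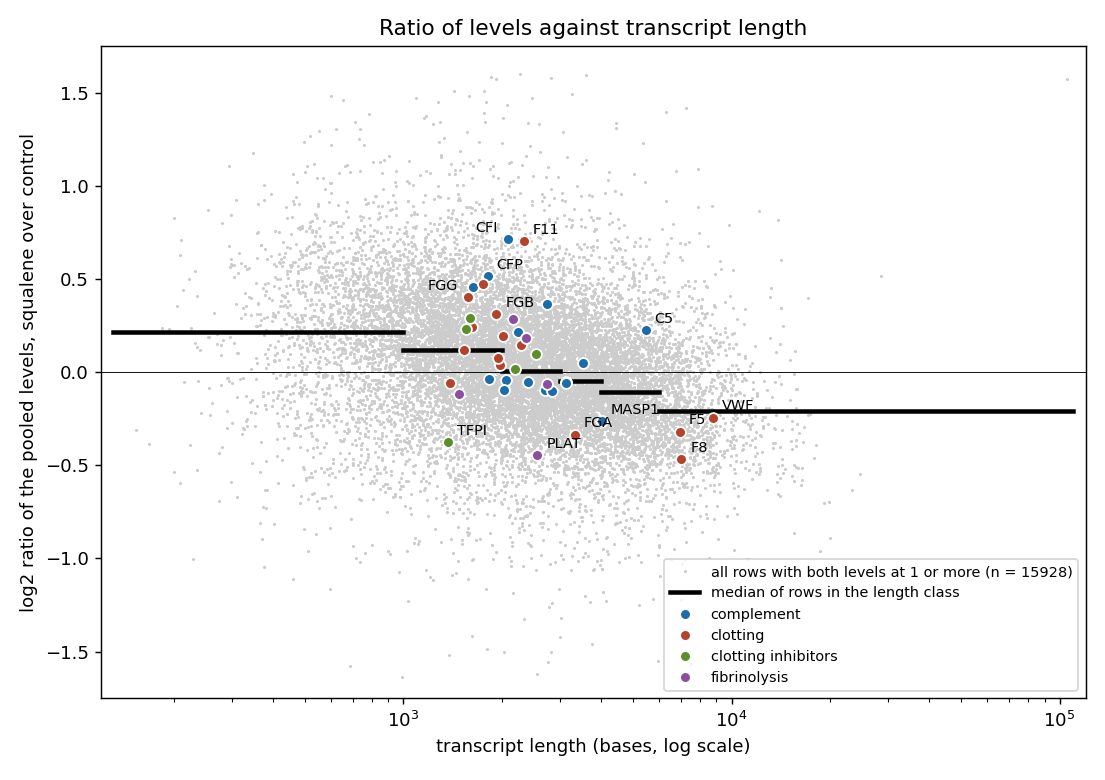
Each grey point is 1 of the 15928 rows with both levels at 1 or more, placed by transcript length in bases (log axis) and by the log2 ratio of the pooled levels, squalene over control; black bars are the medians of the length classes and coloured points are the members by group. The bars step down from 0.22 to -0.21, and F5, F8 and VWF, the members with the longest transcripts, lie at the low end while CFI, F11 and C5 lie above the bars of their class.

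Complement genes lay close to equal levels in the main, with 7 higher, 9 lower and a median log2 ratio of -0.04 over the 16 genes found. In this group the median size of the difference was 1.07-fold, the smallest of the 4 groups. The proteases that C1q carries, C1R and C1S, were at -0.05 and -0.05 and differed from each other by 0.002 on the log2 scale. SERPING1, the C1 inhibitor that blocks both of them, was at -0.04. MASP1, a protease of the lectin pathway, was the lowest complement gene at -0.26, which is 1.20-fold lower on squalene and -0.16 from the median of its length class. C2, which supplies the protease of the classical C3 convertase, was 1.29-fold higher on squalene at 0.36. CFB, which has the same role in the alternative pathway, was at -0.06, so that these homologous proteases differed from each other by 0.42.

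The row with the symbol C1QC was 1.37-fold higher on squalene, at 0.46. It is a chain of C1q, the molecule with which the classical pathway recognises its targets. Its name is uncertain, because the RefSeq gene table of assembly mOryCun1.1 gives its gene ID, 100347327, the symbol C1QA. It is read here as a C1q chain only. CFP encodes properdin, which stabilises the alternative C3 convertase, and was 1.43-fold higher at 0.52. Of all rows, 10.9% lay at least as far from equal levels as CFP, and 14.6% as far as C1QC.

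CFI showed the largest ratio of all members, at 0.71 or 1.64-fold higher on squalene. It encodes factor I, the protease that cuts C3b and C4b and so ends the action of the C3 convertases. Only 3.96% of all rows lay as far from equal levels. Its transcript of 2083 bases falls in a length class with a median of 0.01, and relative to it CFI was at 0.71 again. Factor I works only with a cofactor, and the cofactor genes given here lay below it. C4BPA, a cofactor in plasma, is in the table as LOC100343920, the gene ID that RefSeq names C4BPA, at -0.07. LOC103350990, which has the same KEGG entry and is also described as C4b-binding protein alpha chain, was at 0.30. LOC100352436 has that KEGG entry too but is described as zona pellucida sperm-binding protein 3 receptor, and was at 0.22. Reads may be shared among these rows. The membrane-bound cofactors CR1 and CD46 were at -0.34 and 0.05.

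C3, the central protein of all 3 pathways, was listed in more than 1 row. The row with the symbol C3, of 2698 bases, was at -0.09. Another row of 5211 bases, LOC100346672, is described in the table as complement C3 and was 1.38-fold lower on squalene at -0.46, or -0.35 from the median of its length class. The same held for C5, whose own row of 5475 bases was at 0.22, or 0.33 above its length class, while LOC103352041, of 3609 bases and described as complement C5, was at -0.14. Near-identical copies can share reads, so the values of C3 and C5 are uncertain.

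The genes of the membrane attack pore were near equal levels. C6 was at 0.05, C7 at -0.10, C8B at -0.04 and C9, which forms the wall of the pore, at -0.10. C8A was the highest of them beside C5, at 0.21. The products of C8A and C8B are 2 chains of the same protein, and their ratios differed by 0.25.

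Clotting genes were spread more widely than complement genes. Of the 15 found, 10 were higher and 5 lower on squalene, with a median log2 ratio of 0.12 and a range from -0.47 to 0.70. Many of these transcripts are short, and relative to rows of the same length 8 were above and 7 below, with a median of 0.0023.

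F11 was the highest clotting gene, at 0.70 or 1.63-fold higher on squalene. It encodes factor XI, which thrombin and factor XIIa activate and which in turn activates factor IX. Of all rows, 4.16% lay as far from equal levels, and relative to its length class F11 stayed at 0.70. The other genes of the contact system lay much closer to equal levels. F12, which encodes the factor that starts this system on charged surfaces, was at 0.04, KLKB1, which encodes plasma prekallikrein, at 0.14 and KNG1, which encodes the kininogen from which bradykinin is cut, at 0.08. F12 and KNG1 fell below the median of their length class, at -0.08 and -0.04, so their direction depends on this reference. F11 and KLKB1 arose from a gene duplication and are neighbours in the rabbit genome, and their ratios differed by 0.56.

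F3, which encodes tissue factor, the membrane protein that starts clotting when tissue is injured, was 1.39-fold higher on squalene at 0.47. F7, its plasma partner, was at 0.24. TFPI, the inhibitor that shuts down the complex of both, was the lowest of the inhibitors at -0.38, or 1.30-fold lower. The difference between F3 and TFPI, of 0.85 on the log2 scale, was the widest of the 12 pairs of related members compared. Both transcripts fall in the class from 1000 to 2000 bases, so length classes leave this difference as it is.

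Genes of vitamin K-dependent proteins, which bind calcium and membranes through carboxylated glutamates, were mostly on the higher side. Of the 6 found, 5 were higher on squalene, with a median log2 ratio of 0.16. PROC, at 0.29, was the highest, followed by F7 at 0.24, F2, which encodes prothrombin, at 0.19, F10 at 0.12 and PROS1 at 0.10. F9 was at -0.06. None was among the 11 genes past the lower threshold, and without replicates the neighbours in this order cannot be told apart. Relative to its length class F10 was at 0.0023 and F9 at -0.18. Of the genes that this modification needs, VKORC1, which recycles vitamin K, was at 0.33 and GGCX, the carboxylase itself, at -0.13. The VKORC1 transcript of 790 bases falls in a length class with a median of 0.22.

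The large cofactors and their carrier were all lower. F8 was the lowest of all members at -0.47, or 1.38-fold lower on squalene, F5 was at -0.32 and VWF, which carries factor VIII in plasma, at -0.24. These are the only members with transcripts of 6000 bases or more, a class with a median of -0.21. Relative to that class they were at -0.26, -0.11 and -0.04, so VWF differed little from other transcripts of its length.

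The chains of fibrinogen did not share a direction. Fibrinogen is assembled from equal numbers of alpha, beta and gamma chains, and their genes lie next to each other. FGB was 1.24-fold higher on squalene at 0.31 and FGG 1.32-fold higher at 0.40, whereas FGA was 1.26-fold lower at -0.34. FGA thus differed from FGB by 0.65 and from FGG by 0.74, while FGB and FGG differed by 0.09. The FGA transcript of 3322 bases is longer than those of FGB, 1919 bases, and FGG, 1576 bases. Relative to their length classes the chains were at -0.29, 0.19 and 0.29, so the opposite directions remained, with differences of 0.48 and 0.57 between FGA and the other chains.

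Factor XIII, the transglutaminase that crosslinks fibrin, was absent under its symbols but present under other names. RefSeq names gene ID 103352261 F13A1, and this row, LOC103352261, was at -0.15. A further pair of rows described as factor XIII A chain, LOC103349708 and LOC103347017, were at -0.23 and -0.09, and both levels of the latter were under 1. LOC100347263, which RefSeq names F13B, was at 0.26. These rows were found after the symbols had been looked up and are not counted among the 41 members.

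Of the inhibitors of clotting, 4 of 5 were higher on squalene, with a median log2 ratio of 0.10. SERPINC1, which encodes antithrombin, the main inhibitor of thrombin and factor Xa, was 1.17-fold higher at 0.23. PROC encodes protein C, which inactivates factors Va and VIIIa, and was 1.22-fold higher at 0.29, and its cofactor PROS1 was at 0.10. SERPIND1, which encodes heparin cofactor II, was at 0.02 and turned to just below zero when all ratios were centred on the median of all rows. TFPI was the exception at -0.38, and at -0.49 relative to its length class, the lowest of all members on that scale.

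In fibrinolysis, 2 of 5 genes were higher and 3 lower on squalene, with a median log2 ratio of -0.07. PLAT, which encodes tissue-type plasminogen activator, was 1.36-fold lower at -0.45. PLAU, which encodes the urokinase-type activator, was at 0.18, so that the activators differed by 0.63. PLG, the plasminogen that both convert into plasmin, was at -0.07. SERPINF2, which encodes the plasmin inhibitor alpha-2-antiplasmin, was 1.22-fold higher at 0.28, and CPB2, which encodes a carboxypeptidase that protects fibrin from plasmin, was at -0.12.

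In bulk liver, fewer cells of a type and less RNA per cell cannot be told apart, so the markers of cell types are set beside the members that come largely from cells other than hepatocytes. F8, VWF, TFPI and PLAT, at -0.47, -0.24, -0.38 and -0.45, were all lower on squalene. Relative to their length classes they were at -0.26, -0.04, -0.49 and -0.45, so VWF differed little from other transcripts of its length. Of 8 endothelial markers 7 were lower, with a median of -0.17 and a range from -0.40 for STAB2 to 0.32 for CLEC4G. PECAM1 was at -0.35 and KDR at -0.27. Relative to their length classes, 6 of the 8 markers were lower, with a median of -0.14. THBD, the endothelial thrombin receptor that starts the activation of protein C, was at -0.55, while PROCR, the endothelial receptor of protein C, was at 0.15. The medians of the length classes of THBD and PROCR were -0.05 and 0.12, so PROCR lay close to other transcripts of its length. The C1q chain and CFP, at 0.46 and 0.52, stood beside 8 markers of Kupffer cells and macrophages, 6 of which were higher, with a median of 0.10 and a range from -0.12 for MARCO to 0.64 for TIMD4. CD5L was at 0.46, CD68 at 0.22 and CSF1R at 0.14, and both levels of CLEC4F were under 1. Relative to length classes, the C1q chain and CFP were at 0.34 and 0.40, and 5 of these 8 markers were higher, with a median of 0.09. These groupings of members were made after their values had been seen, and the part of cell composition in them was not tested.

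All 6 hepatocyte markers were in the table with both levels at 1 or more, and 5 were higher on squalene, with a median of 0.31. FABP1 was at 0.49, TTR at 0.43, ALB at 0.39 and APOA1 at 0.22. These are short transcripts, and relative to their length classes 5 of the 6 were above, with a median of 0.12. All 5 neutrophil markers were lower, with a median of -0.37, S100A8 being at -0.67, CSF3R at -0.44, S100A9 at -0.37 and MPO, with 1 level under 1, at -0.20. Of the remaining marker lists, those of cholangiocytes, with EPCAM at 0.52, KRT7 at -0.30 and SOX9 at -0.14, and those of stellate cells and fibroblasts, with DCN at 0.34, RGS5 at 0.28, COL1A1 at -0.26 and COL3A1 at -0.11, had medians of -0.14 and -0.03. T cell markers had a median of 0.36, with CD2 at 0.43, CD3E at 0.39, CD3D at 0.33 and CD3G at -0.13. B cell markers had a median of 0.18, with CD79B at 0.48 and MS4A1 at 0.18. Relative to length classes, the medians were 0.14 for T cell, 0.28 for B cell and -0.40 for neutrophil markers. Platelet markers had a median of 0.06, with PPBP at 0.58, GP9, whose levels were under 1, at 0.06 and ITGA2B at -0.05.

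**Figure D3:**
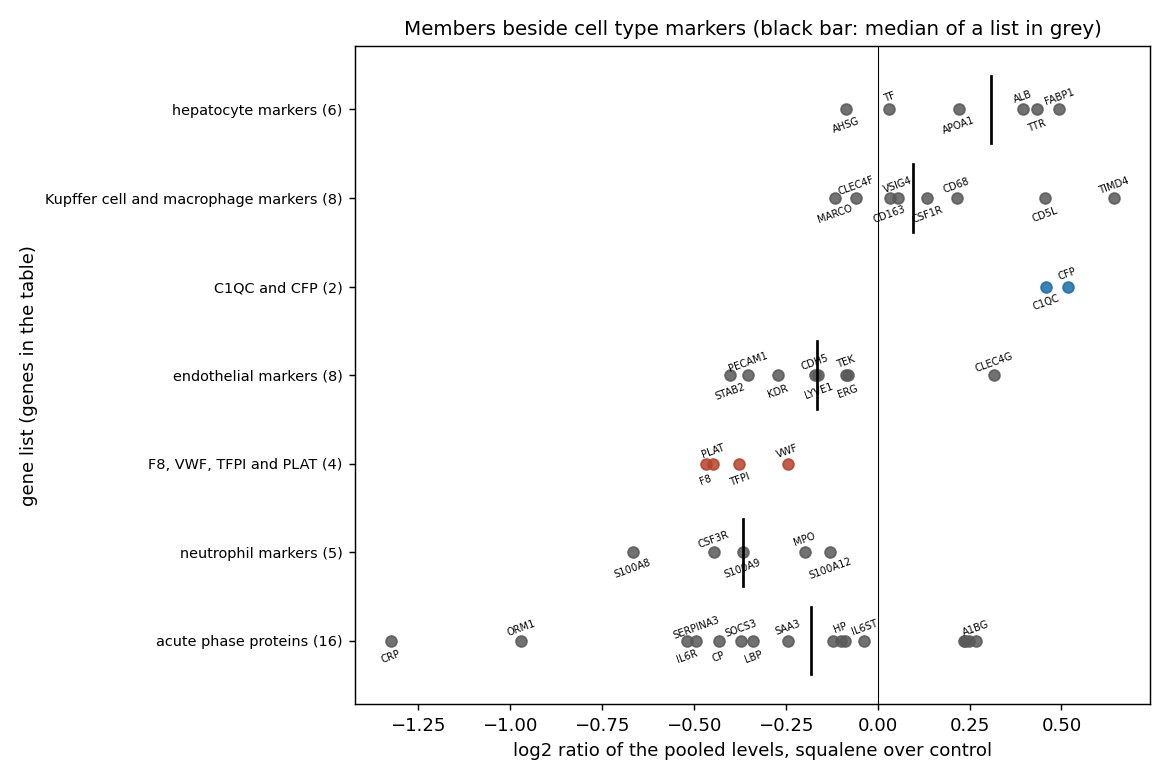
Each point is a gene at the log2 ratio of its pooled levels, squalene over control, in rows by gene list. Grey lists, with a black bar at the median, are markers of cell types and acute phase proteins, the latter with IL6 signalling genes. Coloured points are members. F8, VWF, TFPI and PLAT lie between -0.47 and -0.24, as do several endothelial markers, and the C1q chain and CFP lie at 0.46 and 0.52, near CD5L.

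Many members lie beside a relative in the genome, as the RefSeq gene table shows. With no other protein-coding gene between them, 6 pairs of members were found, and C7 and C6 had 1 gene between them. C2 and CFB matched no entry of that gene table, so their neighbours could not be looked up. C1R and C1S had nearly the same ratio, and F10 and F7 differed by 0.12, C7 and C6 by 0.15, and C8B and C8A by 0.25. KLKB1 and F11 differed by 0.56, FGB and FGA by 0.65, and FGA and FGG by 0.74. Neighbouring genes thus ranged from equal to unlike ratios. By their KEGG entries, 17 members are serine endopeptidases, the enzyme class that drives both cascades. Of these 10 were higher on squalene, with a median log2 ratio of 0.12, and of the other 24 members 13 were higher, with a median of 0.03. CFI and F11 both belong to the 17.

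Further genes of the same pathways, listed beside the 50, were examined in the same way. Of 23 other complement genes found, 10 were higher and 13 lower on squalene, with a median of -0.12. CFHR5 was 1.54-fold lower at -0.62 and CLU, an inhibitor of the membrane attack pore, 1.47-fold lower at -0.56. The receptors C5AR2 and ITGAX were at 0.49 and 0.45. Of 16 other genes of clotting and fibrinolysis, 6 were higher and 10 lower, with a median of -0.06. Past 1.5-fold lay 1 of these 16, on the lower side, which is 6.25% beside 7.69% of all rows. THBD, given above, was at -0.55. On the higher side, FGL1 was at 0.44 and APOH at 0.36, both in a length class with a median of 0.12. Of the 9 genes that process clotting factors, 4 were higher and 5 lower, with a median of -0.13. VKORC1 was the highest at 0.33, in a length class with a median of 0.22. On the lower side were the disulphide isomerase gene PDIA6 at -0.49 and FURIN, whose protease trims proproteins, at -0.36. LMAN1, the cargo receptor that carries factors V and VIII out of the endoplasmic reticulum, was at -0.25.

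Acute phase proteins, hepatic plasma proteins that follow inflammatory signals, were listed together with the IL6 signalling genes IL6R, IL6ST and SOCS3. Of this mixed list of 16 genes found, 12 were lower, with a median of -0.18, led by CRP at -1.32 and ORM1, 1.96-fold lower at -0.97. Relative to their length classes 11 of the 16 were lower, with a median of -0.36. SERPINA3 was at -0.49. The signalling genes IL6R, IL6ST and SOCS3 were at -0.52, -0.04 and -0.37, so they are among the lower genes of the list. Of 14 regulators of hepatocyte genes, 6 were higher and 8 lower, with a median of -0.10. HNF4A, a nuclear receptor on which many clotting factor genes depend in mouse liver, was 1.58-fold lower at -0.66. NR1I3 was at 0.58, ESR1 at -0.44 and ONECUT1 at -0.33. Relative to their length classes, 6 of the 14 regulators were above and 8 below, with a median of -0.05. On that scale HNF4A was the lowest at -0.56, inside the threshold of 0.58, and NR1I3 the highest at 0.46. The ESR1 and ONECUT1 transcripts fall in the class of 6000 bases or more, with a median of -0.21. None of the 46 deposited splicing events, in 39 genes, lay in a member gene.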

How the data were processed

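Liver RNA of 10 rabbits, 5 per diet by the labels, was sequenced; a legend of the study calls the sequenced samples partially pooled. The authors removed low-quality reads, mapped reads with HISAT2 to the rabbit genome OryCun2.0, added transcripts from StringTie, and computed levels with Bowtie and RSEM; versions are not given in the sources used here. Their deposited table holds 1 level per diet, of a scale that is not stated, and whether a level is a plain mean or comes from a model is not given. It also holds the authors' fold changes, p-values and adjusted p-values, which were not used. The levels of 1 or more lack their decimal mark, and lost powers of 10 were set so that each ratio was the nearest to 1.

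Genes were matched by symbol. Medians, counts past 1.5-fold and ratios relative to length classes were computed with Python 3.11.15, numpy 2.4.6 and pandas 2.3.3 and drawn with matplotlib 3.10.9. Recovery of ratios was tried on simulated data, but for small differences the choice of the nearest ratio is right by construction. The trial therefore cannot show whether any gene of the table differed by too much for this choice. Tests across rabbits had been planned for values per rabbit and could not be run. Named were all members found and, of each further list, the 4 genes with the largest ratio in either direction, except for a few that are not reported here. Genes outside this rule (CR1, CD46, GGCX, PROCR, MARCO, CLEC4F and rows under LOC names) were chosen after their values were seen. The members and lists were chosen with earlier results of these data known. Of the table's gene IDs 16248, and of the members' 39, matched an entry of RefSeq's mOryCun1.1 gene list, which served for names and neighbours only. Site tables name no gene, and read totals are listed for libraries whose names match no sample title; neither was used, so the depth per sample is unknown here.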

Additional observations from a re-analysis of the deposited data

How the results depend on the processing

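No paired analysis was possible because the deposited table holds 1 pooled level per diet, so the replicate numbers of the labels cannot be used. For the same reason no rabbit could be left out, and no filter on counts or error could be applied. The count of members past the threshold of 1.5-fold, 2, became 11 at the lower threshold of 0.32 on the log2 scale and 0 at 2-fold, and it stayed at 2 with ratios centred on the median of all rows or of rows of the same length. For complement, the median log2 ratio of -0.04 became -0.053 with the 36 members whose levels carry the same number of digits and -0.056 when centred on all rows. It became -0.0062 when centred on rows of the same length. For clotting, the median of 0.12 became 0.13, 0.10 and 0.0023 under the same settings, and 0.077 with rows under other symbols added. For clotting inhibitors, the median of 0.10 became 0.082 when centred on all rows and 0.094 when centred on rows of the same length. For fibrinolysis, the median of -0.07 became -0.083 when centred on all rows. Length classes and rows under other symbols were chosen after seeing the data. The share of all rows past 1.5-fold was 7.56% with reference gene IDs only and 8.56% without rows that share both levels with another. No symbol of a member had several rows, no site could be placed in a gene and no splicing event lay in a member, so the alternatives planned for these were not run.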
